A study of Mus musculus with 8 samples.

Results

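The polyamine genes followed here are 10 mouse genes for the synthesis, breakdown and control of putrescine, spermidine and spermine: Odc1, Amd1, Amd2, Srm, Sms, Smox, Sat1, Oaz1, Oaz2 and Azin1. They were taken by gene symbol from the 24054 rows of the deposited table of all detected genes, of which 16242 had a read in any library. All 10 symbols were found, and since Amd1 and Amd2 are near-identical copies their values were added, which gives 9 rows. RNA was sequenced from DC2.4, a dendritic cell line from C57BL/6 mice. Of the 4 groups of cultures, 3 were exposed for 4 h to 250 protein nitrogen units per ml (PNU/ml) of an allergen extract. The HDM group received house dust mite extract, the Grass group timothy grass extract and the Cat group cat hair extract. The Untreated group received none, and no vehicle is named for it. Each group holds 2 libraries, called independent in the series' design text. The protocol, worded alike for every sample, puts the cells in medium with 0.1% serum for 4 h before exposure, after growth in 10% serum. DC2.4 is a single line, immortalised from bone marrow with myc and raf oncogenes, so the libraries are cultures of 1 line and not separate mice. The p-values below weigh a difference against the variation between such cultures only. That variation was estimated over all 4 groups together and moderated across rows. The genes were chosen by their role and by their levels and fold changes in these same comparisons, which were already known. Their levels, differences and calls are therefore given as a description, and no p-value is printed for them. A call of such a gene marks the side of a threshold it fell on and is no independent test.

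Values are the deposited ones, a depth-scaled signal close to RPM, with 31.94 to 43.32 M reads behind each library. A polyamine row had between 1016 and 32158 reads in a library, apart from the separate Amd1 and Amd2 rows described below. A row is called different where limma's adjusted p over all 11454 rows tested was under 0.05. Groups that do not overlap are common among these rows. Both HDM libraries were above both Untreated ones in 2614 rows and below them in 4705. For Grass these were 2729 and 4833 rows, and for Cat 2297 and 4119. All 9 polyamine rows passed the filter on low values (at least 0.5 in at least 2 libraries). Of 14 dendritic and myeloid markers, 7 were at 10 or more in every library, among them Ptprc, Spi1, Itgam, Csf1r and Irf8. Itgax, the dendritic marker CD11c, was low at 2.57 to 3.29, and 3 markers (Flt3, H2-Ab1 and Ciita) stayed below 0.5 in every library. The summed level of these 14 markers was 1523 to 1568 with HDM, 1514 to 1523 with Grass, 1495 to 1509 with Cat and 1611 to 1618 in Untreated, and its part in the differences below was not tested. The values of all rows together also summed highest in Untreated, at 1032128 and 1047501, against 975215 to 1001836.5 with the extracts. The marker sums are not corrected for this. Single markers were also called against Untreated. Irf8 was called lower with HDM, Grass and Cat, at log2 fold changes of -0.53, -0.53 and -0.18. So were Ptprc (-0.27, -0.34 and -0.27) and Itgam (-0.08, -0.13 and -0.14). Cd74 was called lower with Grass (-0.10) and Cat (-0.14), and Cd40 higher with HDM (0.38). No other marker was called against Untreated. The T cell, B cell, epithelial, and fibroblast and endothelial lists each summed to at most 1.26 in any library. In such bulk libraries a lower level in every cell and fewer cells with a transcript cannot be told apart.

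Polyamines are small positively charged molecules that bind nucleic acids and are needed for growth and translation. ODC1 makes putrescine from ornithine, and S-adenosylmethionine decarboxylase, the product of Amd1 and Amd2, supplies the aminopropyl donor that spermidine synthase (SRM) and spermine synthase (SMS) add. SMOX oxidises spermine back to spermidine with release of hydrogen peroxide, and SAT1 acetylates spermidine and spermine for export or oxidation. Antizymes (OAZ1, OAZ2) bind ODC1, send it to the proteasome and restrain polyamine uptake, and antizyme inhibitor (AZIN1) frees ODC1 by binding antizyme in its place. In myeloid cells the ornithine for this pathway can come from arginine, which nitric oxide synthase also consumes.

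Amd1 and Amd2 are described first because how reads fell between them decides what can be said of either. In the GENCODE M21 annotation of build GRCm38, the Amd1 transcript has 3204 bases in 8 exons at chr10:40287458-40302186, and the Amd2 transcript has 3218 bases in 1 exon at chr10:35708675-35711892, both on the minus strand. Over 3204 aligned bases the transcripts differed at 14, an identity of 99.56%. Within the 1005 bases of the coding sequence they differed at 1, G796C, with positions counted from the first base of the start codon and the Amd1 base given first. That position is shown in capitals below with 30 bases on each side, since it is the only coding base at which a read can be told apart (GRCm38, minus strand, chr10:40290156-40290216 for Amd1 and chr10:35710734-35710794 for Amd2).
Amd1 coding window: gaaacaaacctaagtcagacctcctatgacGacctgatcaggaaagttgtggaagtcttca
Amd2 coding window: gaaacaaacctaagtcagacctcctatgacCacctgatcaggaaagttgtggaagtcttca
Of all 75-base words in the Amd1 transcript, 79.6% also occurred in the Amd2 transcript, and of those in Amd2, 79.2% occurred in Amd1. The 250 bases before the start sites, in contrast, shared no run longer than 7 bases. They are shown from RefSeq (GRCm38.p6, minus strand) at chr10:40302189-40302438 for Amd1 and chr10:35711892-35712141 for Amd2, with matches to TATAA on either strand in capitals.
Amd1 upstream: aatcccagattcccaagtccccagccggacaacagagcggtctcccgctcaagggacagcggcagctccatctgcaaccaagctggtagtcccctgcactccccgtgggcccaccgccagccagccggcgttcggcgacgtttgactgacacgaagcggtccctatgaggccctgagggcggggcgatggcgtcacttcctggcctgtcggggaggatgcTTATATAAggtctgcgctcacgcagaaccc
Amd2 upstream: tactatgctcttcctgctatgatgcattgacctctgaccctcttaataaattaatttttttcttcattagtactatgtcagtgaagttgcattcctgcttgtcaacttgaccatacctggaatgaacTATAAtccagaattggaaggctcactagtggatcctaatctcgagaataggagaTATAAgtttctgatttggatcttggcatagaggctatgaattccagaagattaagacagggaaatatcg
TATAA occurred in 22.8% of 32851 RefSeq windows of the same length. In Amd1 a match on each strand overlapped, beginning 30 and 27 bases before the start site. In Amd2 the matches began 123 and 69 bases before it. Such matches are letters in these windows only.

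The separate Amd1 and Amd2 values moved against each other from library to library, while their sum varied far less. Amd1 had 103 and 137 with HDM, 9.30 and 0.896 with Grass, 29.4 and 8.11 with Cat, and 26.4 and 42.6 in Untreated. Amd2 had 61.1 and 33.7 with HDM, 165 and 171 with Grass, 171 and 183 with Cat, and 172 and 166 in Untreated. Both HDM libraries were thus the highest for Amd1 and the lowest for Amd2. The share of the pair given to Amd1 was 62.8% and 80.2% with HDM, 5.33% and 0.52% with Grass, 14.7% and 4.25% with Cat, and 13.3% and 20.4% in Untreated. Between its highest and lowest library Amd1 differed 153-fold and Amd2 5.43-fold, but their sum 1.27-fold. Replicates of 1 group also differed, with 412 and 34 Amd1 reads in the Grass libraries. The authors' deposited tables list Amd1 at a fold of 3.57 for HDM, -6.51 for Grass and -1.8 for Cat, and Amd2 at -3.46 for HDM, where a minus sign marks a lower level with the extract. In the fit of all rows with the copies kept apart, Amd1 had a log2 fold change of 1.82 (SE 1.32) between HDM and Untreated and was not called, and Amd2 had -1.89 (SE 0.30) and was called. Whether the split holds expression of 2 genes or the assignment of shared reads cannot be told apart in these values, so the sum is used from here on.

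**Figure D1:**
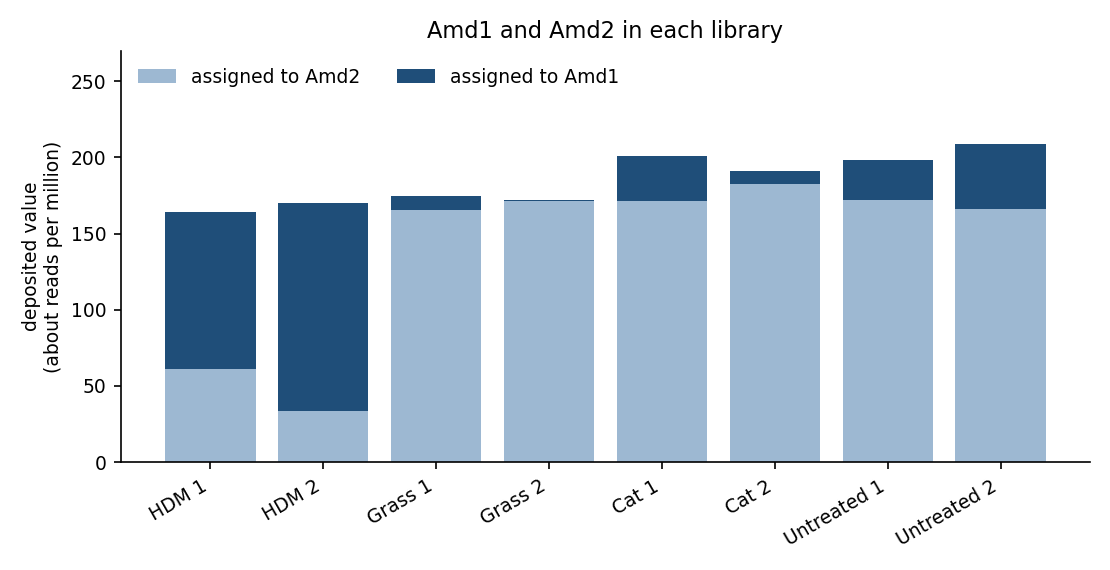
Stacked bars give the deposited value (about RPM) in each of the 8 libraries, with the part assigned to Amd1 in dark blue on top of the part assigned to Amd2 in light blue. The height of the whole bar lies between 164 and 209, while the Amd1 part runs between 0.896 and 137.

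The genes of synthesis come next. Odc1 (chr12:17544808-17551502 in RefSeq, GRCm38.p6), the first and rate-limiting enzyme, was the most abundant polyamine transcript, also per length: in Untreated it had 381 per kb of its longest protein-coding transcript, against 345 for Oaz1, 294 for Srm, 63.5 for the Amd sum, 61.0 for Azin1, 57.7 for Sat1, 46.8 for Sms, 46.7 for Smox and 16.0 for Oaz2. These lengths come from GENCODE M21 and not from the authors' annotation. Odc1 had 756 and 776 with HDM, 726 and 742 with Grass, 820.2 and 815 with Cat, and 828 and 854 in Untreated. No group's libraries overlapped those of another, in the order Grass, HDM, Cat and Untreated from low to high. The log2 fold change against Untreated was -0.13 (SE 0.03) for HDM and -0.20 (SE 0.03) for Grass, both called lower, and -0.04 (SE 0.03) for Cat, not called. Under other scalings of the libraries the Grass change lay as close to 0 as -0.13 (upper-quartile factors) and stayed called. The HDM change lay as close as -0.09 under the same factors and also stayed called. Of all rows tested, 36.2% with HDM and 25% with Grass had a larger change than Odc1 in either direction.

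The Amd1 and Amd2 sum had 164 and 170.3 with HDM, 174 and 172 with Grass, 201 and 191 with Cat, and 198 and 209 in Untreated. All 4 HDM and Grass libraries were below all 4 Cat and Untreated libraries, and Cat overlapped Untreated. Against Untreated the log2 fold change was -0.28 (SE 0.03) for HDM and -0.23 (SE 0.03) for Grass, both called lower, and -0.06 (SE 0.03) for Cat, not called. A larger change than that of the Amd sum was seen in 12.3% of all rows with HDM and 19.5% with Grass. Both enzymes that open the pathway, ODC1 and S-adenosylmethionine decarboxylase, thus had lower transcript levels with HDM and with Grass.

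The aminopropyl transferases varied less. Srm, spermidine synthase, had 385 and 389 with HDM, 393 and 393 with Grass, 409 and 413 with Cat, and 393 and 394 in Untreated. Grass and Untreated both averaged 393, a log2 fold change of -0.00 (SE 0.03), HDM was at -0.02 (SE 0.03) and Cat at 0.07 (SE 0.03) against Untreated, and none was called. The Cat difference was called higher under all 3 other scalings and in edgeR and DESeq2 on recovered reads, at 0.09 to 0.10. Sms, spermine synthase, had 160.3 and 165 with HDM, 160.0 and 164 with Grass, 171 and 164 with Cat, and 175 and 173 in Untreated. Both Untreated libraries were above the other 6. The log2 fold changes of Sms were -0.10 (SE 0.03) for HDM, -0.10 (SE 0.03) for Grass and -0.05 (SE 0.03) for Cat, and the HDM and Grass changes were called lower. Both calls ended under each other scaling, in edgeR and in DESeq2, and also without HDM replicate 1 or Grass replicate 1.

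Of the genes of breakdown, Smox stood apart with HDM. Smox (chr2:131491858-131525183 in RefSeq, GRCm38.p6), the spermine oxidase, had 162 and 153 with HDM, 99.0 and 104 with Grass, 98.2 and 99.96 with Cat, and 104 and 111 in Untreated. Both HDM libraries were above the other 6, which lay between 98.2 and 111. The mean was 157 ± 5.93 with HDM and 107 ± 5.23 in Untreated (SD, n = 2 each), a log2 fold change of 0.55 (SE 0.04) or 1.47-fold, called higher. Of all rows tested, 2.92% had a larger change in either direction. The authors' deposited table gives a Smox fold of 1.51 for HDM, where the smallest fold it lists is 1.502. Grass was at -0.08 (SE 0.04) against Untreated and not called. Cat was at -0.11 (SE 0.04) and called lower, a call that ended in 10 of 18 alternatives, among them every other scaling and the fits without either Cat replicate or without Untreated replicate 2. The 250 bases before the Smox start site hold 6 matches to GGGCGG, the core of the GC box, on either strand, beginning 234, 161, 129, 35, 24 and 13 bases before it, and 32.7% of the RefSeq windows of that length hold at least 1. The motif was also found 4 times before Odc1, 4 times in 1 of the Sms windows, 3 times before Oaz2, 2 times before Sat1 and 1 time before Amd1. The window ends inside the gene span given above, which begins at 131491858, so the distances are counted from the base after the window. The sequence (RefSeq, GRCm38.p6, plus strand, chr2:131491612-131491861) is shown with these matches in capitals, because Smox is the polyamine gene with the largest difference.
Smox upstream: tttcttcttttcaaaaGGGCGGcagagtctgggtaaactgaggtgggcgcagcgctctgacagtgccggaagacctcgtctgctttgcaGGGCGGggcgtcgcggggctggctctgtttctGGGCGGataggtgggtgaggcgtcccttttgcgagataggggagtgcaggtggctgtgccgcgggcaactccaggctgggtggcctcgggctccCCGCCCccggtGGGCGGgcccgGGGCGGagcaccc
A pair of other motifs was searched in the same way. CACGTG, the E-box that MYC and MAX bind, occurs in 6.02% of the windows, and TNGCGTG, the core bound by the aryl hydrocarbon receptor, in 4.1%. RefSeq windows were matched for 8 of the 10 genes, with 9 windows in all. Srm and Azin1 had no window and were not searched for any motif. Sequence outside these 250 bases was not searched either, so a motif absent here may occur elsewhere in a gene. CACGTG occurred in 1 of 2 Sms windows, 196 bases before the start, and TNGCGTG in none of the 9.

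Sat1, the spermidine and spermine acetyltransferase, had 72.9 and 71.4 with HDM, 64.6 and 63.9 with Grass, 65.5 and 66.8 with Cat, and 63.8 and 70.4 in Untreated. The HDM libraries were the highest of the 8, though Untreated replicate 2 came close. Against Untreated its log2 fold change was 0.11 (SE 0.04) for HDM, -0.06 (SE 0.04) for Grass and -0.02 (SE 0.04) for Cat, none called. The HDM change was called at 0.14 to 0.15 under the other scalings and in edgeR, and it lay between 0.03 and 0.18 as single libraries were left out.

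Among the regulators of ODC1, Azin1 differed most. Azin1 (chr15:38487430-38519294 in RefSeq, GRCm38.p6) codes for antizyme inhibitor 1 and had 239 and 247 with HDM, 261 and 264 with Grass, 269 and 249.5 with Cat, and 293 and 302 in Untreated. Both Untreated libraries were above the other 6, and Cat overlapped Grass. It was the 1 polyamine row called lower with all 3 extracts. Its log2 fold changes were -0.29 (SE 0.03) for HDM, -0.18 (SE 0.03) for Grass and -0.20 (SE 0.03) for Cat. Of all rows tested, 11.7%, 28.5% and 14.6% had a larger change in either direction. Oaz1, the main antizyme, whose translation needs a polyamine-induced frameshift, had 348 and 336 with HDM, 340.2 and 358 with Grass, 352 and 360.4 with Cat, and 366 and 374 in Untreated. Its 2 Untreated libraries were the highest. The log2 fold changes were -0.11 (SE 0.03) for HDM and -0.08 (SE 0.03) for Grass, both called lower, and -0.05 (SE 0.03) for Cat, not called. The HDM call ended under TMM and upper-quartile scaling, in edgeR and DESeq2, and without HDM replicate 2. The Grass call ended in 9 of 18 alternatives, among them every other scaling and the fits without Grass replicate 1 or Untreated replicate 2. The processed pseudogene row Oaz1-ps held 0.632 in Grass replicate 1, 5.28 in Cat replicate 1 and 0 in the other libraries, and adding it to Oaz1 ended no call. Oaz2, a second antizyme, had 30.9 and 32.3 with HDM, 31.7 and 30.6 with Grass, 31.7 and 29.1 with Cat, and 29.3 and 29.8 in Untreated. Its log2 fold changes of 0.10, 0.07 and 0.04 (SE 0.05 each) for HDM, Grass and Cat were not called. With upper-quartile factors the HDM and Grass changes of Oaz2 were both 0.14 and called higher.

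**Figure D2:**
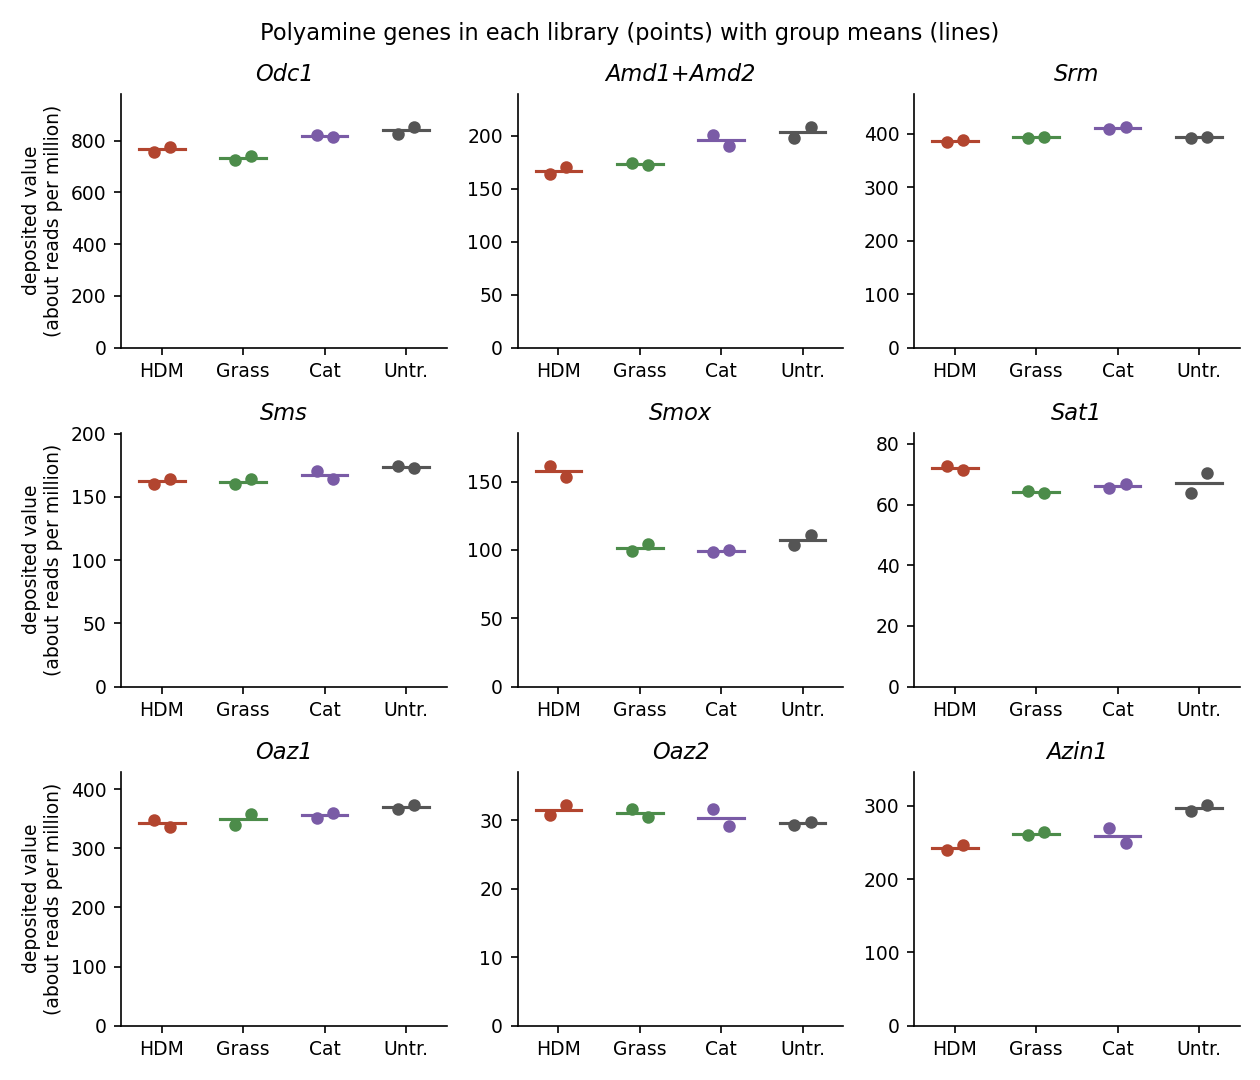
Each panel shows 1 polyamine row, with the deposited value (about RPM, axis starting at 0) of both libraries of each group as points and the group mean as a line. Smox in HDM, at 162 and 153, is the clearest separation from the other groups, and Azin1 is highest in both Untreated libraries at 293 and 302.

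Counted against Untreated, HDM had 6 of the 9 rows called, 1 higher and 5 lower, while 31.2% of all rows tested were called (9.22% higher and 21.9% lower). Grass had 5 rows called, all lower, against 35.8% of all rows (10.4% higher and 25.4% lower). Cat had 2 rows called, both lower, against 18.0% of all rows (4.34% higher and 13.6% lower). Among the 6183 rows at least as abundant as Oaz2, the lowest polyamine row with a mean of 30.7, the shares called were 41.9%, 48.2% and 25.9%. The median log2 fold change of the 9 rows was -0.098 for HDM, -0.084 for Grass and -0.054 for Cat, and that of all rows tested was -0.035, -0.038 and -0.025. Since these comparisons chose the genes, nothing is read from the counts. They also share the 2 Untreated libraries. The balance of all calls depends on the scaling: 29.6% of calls were higher for HDM, 29.1% for Grass and 24.1% for Cat as deposited, and 53.1%, 57.3% and 51.6% with upper-quartile factors, although the median of all rows moved by at most 0.061. The split of the polyamine rows depends on it too. With HDM it was 2 higher and 3 lower under TMM factors, and 2 and 4 under DESeq2 size factors. Upper-quartile factors gave 3 higher and 3 lower with HDM, and 1 higher and 3 lower with Grass. Single Untreated libraries decided some calls. Without Untreated replicate 1, Smox and Sat1 were called lower with Grass, both at -0.13, and the Amd sum was called lower with Cat at -0.09. Without Untreated replicate 2, Sat1 was called higher with HDM at 0.18.

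Set against each other, the extracts differed mainly in Smox, Odc1 and the Amd sum. HDM against Grass had 2 rows called, both higher, where 2.31% of all rows were called (1.69% higher and 0.620% lower) and 3.33% of those at least as abundant as Oaz2. Smox was 0.63 higher (SE 0.04), a difference exceeded by 0.637% of rows, and Sat1 0.17 higher (SE 0.04). The Sat1 call ended in 7 of 18 alternatives, including the fits without any 1 of the HDM or Grass libraries. HDM against Cat had 4 rows called, 1 higher and 3 lower, where 7.77% of all rows were called (2.95% higher and 4.82% lower) and 11.2% of those at least as abundant as Oaz2. Smox was 0.67 higher (SE 0.04), and the Amd sum was at -0.23 (SE 0.03), Odc1 at -0.09 (SE 0.03) and Srm at -0.09 (SE 0.03). Leaving out any 1 HDM or Cat library ended the calls of Odc1 and Srm, and other scalings ended that of Srm. Grass against Cat had 2 rows called, both lower, where 11.8% of all rows were called (3.58% higher and 8.24% lower) and 17.1% of those at least as abundant as Oaz2. These were Odc1 at -0.16 (SE 0.03) and the Amd sum at -0.18 (SE 0.03). Both held in every alternative run. Azin1 was at -0.11 (SE 0.03) between HDM and Grass and at -0.09 (SE 0.03) between HDM and Cat, not called in either, though the HDM and Grass difference was called under TMM and upper-quartile factors and in edgeR. With upper-quartile factors 59.6% of all calls were higher for HDM against Grass and 49.8% for Grass against Cat, in place of 73.2% and 30.3%. Of all 21 calls of polyamine rows over the 6 comparisons, 13 held in every alternative run, namely those of Smox with HDM, of Azin1, of the Amd sum and of Odc1 other than between HDM and Cat.

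**Figure D3:**
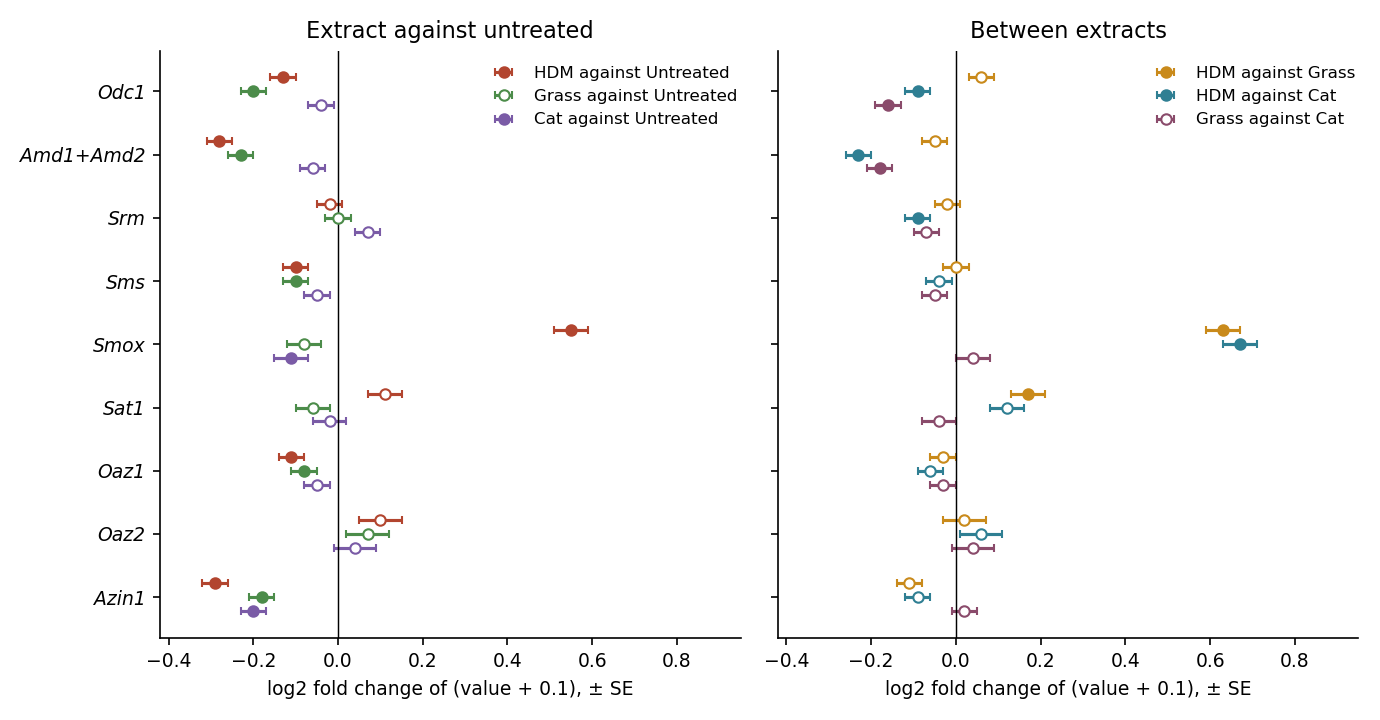
Points give the log2 fold change of the value plus 0.1 with its standard error for each polyamine row, for each extract against Untreated on the left and for pairs of extracts on the right, and filled points were called at an adjusted p under 0.05. Smox lies at 0.55 to 0.67 in the 3 comparisons with HDM on top, and Azin1 lies below 0 for all 3 extracts.

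For the 2 polyamine rows whose group means varied most, Smox (a range of 0.67 on the log2 scale) and Azin1 (0.29), the rows with the most similar pattern over the 4 group means were looked up among 10737 rows with a mean of at least 1. Likeness is the root mean square difference of the centred log2 group means. The rows nearest to Smox were Stxbp3b at 0.009, Gpr141 at 0.024 and Exoc3 at 0.034. Stxbp3b was low, with means of 1.94 with HDM, 1.24 with Grass, 1.21 with Cat and 1.30 in Untreated. Exoc3 had means of 66.7, 45.0 and 43.7 with HDM, Grass and Cat, and 45.1 in Untreated. The rows nearest to Azin1 were B4galt1 at 0.012, Fmn1 at 0.013 and Plekho1 at 0.014. Each likeness rests on 4 group means of 2 libraries.

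Genes around the pathway were followed in 6 lists of 54 genes picked for their role, with earlier results of these data known. Their p-values are therefore not those of genes chosen blind to the data. All 54 were in the table, 33 passed the filter, and 17 were called against Untreated in at least 1 comparison by limma with Benjamini-Hochberg adjustment over all rows. As deposited, calls were 12 lower for HDM, 3 higher and 11 lower for Grass, and 3 lower for Cat, where 31.2%, 35.8% and 18.0% of all rows were called. This balance depends on the scaling. TMM factors gave 2 higher and 7 lower for HDM, and 5 higher and 8 lower for Grass. Upper-quartile factors gave 3 higher and 5 lower for HDM, and 8 higher and 8 lower for Grass. At an unadjusted p under 0.05, 2 were higher and 14 lower for HDM, 6 higher and 12 lower for Grass, and 0 higher and 6 lower for Cat. The medians of the lists below stand beside those of all rows given above.

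In the list for arginine and ornithine supply, 7 of 12 genes were tested, and lower calls numbered 1 for HDM, 2 for Grass and 1 for Cat. The median log2 fold changes were -0.049, -0.050 and -0.016 for HDM, Grass and Cat, the order used for each list. Nos2, the inducible nitric oxide synthase that competes for arginine, had 276 and 268 with HDM, 264 and 259 with Grass, 279.6 and 281 with Cat, and 305 and 321 in Untreated. It fell with all 3 extracts, by 0.20 (SE 0.03, adjusted p = 8e-06), 0.26 (SE 0.03, adjusted p = 1.6e-07) and 0.16 (SE 0.03, adjusted p = 0.00047) on the log2 scale for HDM, Grass and Cat. Slc7a1, a cationic amino acid importer, averaged 558 ± 11 with Grass and 613 ± 22 in Untreated and fell by 0.14 (SE 0.03, limma adjusted p = 0.00053). Arg1 and Arg2, the arginases that make ornithine, stayed at 0.426 or less in every library, below the filter. Other genes of this list were well above it, with Oat at 153 to 160 and Aldh18a1 at 251 to 268, neither called against Untreated.

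Of 8 other polyamine enzymes and regulators, 3 were tested and 1 fell with HDM (medians 0.116, 0.301 and 0.165). That gene was Aoc2, a copper amine oxidase, at 5.29 ± 0.35 with HDM and 7.32 ± 0.25 in Untreated, a log2 fold change of -0.46 (SE 0.10, adjusted p = 0.0012 by limma). Whether AOC2 acts on polyamines was not examined, so its fall is not read as a change in polyamine breakdown. Paox, the oxidase of acetylated polyamines, averaged 4.63 with HDM, 4.93 with Grass, 4.51 with Cat and 3.99 in Untreated and was not called (limma adjusted p = 0.24, 0.076 and 0.43), but it was called higher with Grass under the other scalings and in edgeR.

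Of 9 transport genes, 3 were tested, with lower calls for 2 in HDM, 2 in Grass and 1 in Cat (medians -0.100, -0.175 and -0.078). Atp13a3, a transporter that brings polyamines into cells, had 315.5 and 322 with HDM, 313 and 303 with Grass, 337.5 and 334 with Cat, and 373 and 359 in Untreated. Both Untreated libraries were the highest, and it fell by 0.20 (SE 0.03, limma adjusted p = 7.3e-06), 0.25 (SE 0.03, adjusted p = 2e-07) and 0.12 (SE 0.03, adjusted p = 0.0034) with HDM, Grass and Cat. The Cat call ended without Cat replicate 2. Slc3a2, the heavy chain of amino acid transporters that has also been linked to polyamine export, fell by 0.10 (SE 0.03, limma adjusted p = 0.0064) with HDM and 0.17 (SE 0.03, adjusted p = 1.7e-05) with Grass. Its HDM call ended under the other scalings and without HDM replicate 2.

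Spermidine is the substrate for hypusine, a modification carried by the translation factor eIF5A. Of 4 genes in this list 3 were tested, and 3 fell with HDM and 2 with Grass (medians -0.116, -0.102 and -0.020). Dhps, deoxyhypusine synthase, averaged 33.0 ± 1.8 with HDM and 37.2 ± 0.5 in Untreated, a log2 fold change of -0.18 (SE 0.05, limma adjusted p = 0.0089). Dohh, the hydroxylase of the following step, had -0.12 (SE 0.04, limma adjusted p = 0.016) with HDM and -0.13 (SE 0.04, adjusted p = 0.0084) with Grass. Eif5a had -0.08 (SE 0.02, limma adjusted p = 0.013) with HDM and -0.07 (SE 0.02, adjusted p = 0.022) with Grass. The Dohh and Eif5a calls ended under every other scaling. Those of Eif5a also ended without either replicate of the extract, those of Dohh without HDM replicate 1, Grass replicate 2 or Untreated replicate 1, and that of Dhps under upper-quartile factors, in DESeq2 and without HDM replicate 2.

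S-adenosylmethionine feeds the decarboxylase, and the methylthioadenosine left by spermidine and spermine synthesis is salvaged to methionine. Of the 11 genes of this list 9 were tested, with lower calls for 4 in HDM, 4 in Grass and 1 in Cat (medians -0.091, -0.015 and -0.058). Mat2a, which makes S-adenosylmethionine, had 215 and 226 with HDM, 232 and 232 with Grass, 251 and 251 with Cat, and 267 and 261 in Untreated. It fell by 0.26 (SE 0.03, limma adjusted p = 1.6e-07) with HDM and 0.19 (SE 0.03, adjusted p = 1.7e-05) with Grass, and was at -0.07 (SE 0.03, adjusted p = 0.087) with Cat. Mtap, which cleaves methylthioadenosine, averaged 198 ± 0.88 with HDM, 197 ± 1.2 with Grass, 215 ± 4.6 with Cat and 224 ± 2.2 in Untreated (SD, n = 2 each). It fell by 0.18 (SE 0.03) with both, with limma adjusted p = 3e-05 for HDM and 1.4e-05 for Grass. Enoph1, a salvage enzyme, fell by 0.14 (SE 0.04, limma adjusted p = 0.0058) with HDM and 0.13 (SE 0.04, adjusted p = 0.0098) with Grass. Got1, an aminotransferase, fell by 0.15 (SE 0.03, limma adjusted p = 0.00072) with Grass and 0.10 (SE 0.03, adjusted p = 0.034) with Cat. The remaining HDM call, that of the salvage enzyme Adi1, ended in 17 of 18 alternatives. The Enoph1 call with HDM ended under upper-quartile factors and in DESeq2, and its Grass call under every other scaling and without Grass replicate 1 or Untreated replicate 2. The Cat call of Got1 ended in 12 of 18 alternatives, among them every other scaling and the fits without any 1 HDM or Cat library or without Untreated replicate 2.

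MYC is a known activator of Odc1, and MAX is its partner. Of the 10 genes of this network 8 were tested, with 1 lower with HDM and 3 higher and 1 lower with Grass (medians 0.101, 0.112 and -0.039). The Myc row was low, at 0.271 to 0.615 over the 8 libraries. Whether it counts transcripts of the myc oncogene that immortalised the line is not known, so it does not give the MYC level of these cells. Max averaged 125 ± 0.88 with HDM, 122 ± 2.5 with Grass and 135 ± 1.1 in Untreated, and fell by 0.11 (SE 0.03, limma adjusted p = 0.01) with HDM and 0.15 (SE 0.03, adjusted p = 0.00055) with Grass. The HDM call ended under every other scaling and without HDM replicate 2. The genes that rose with Grass code for MAX partners that oppose MYC. Mxd1, Mxd3 and Mga of the same list were at 0.06, 0.28 and -0.06 with Grass, none called as deposited. Mxd3 was called with Grass under upper-quartile factors. Mxi1 rose by 0.20 (SE 0.04, limma adjusted p = 0.00028) and Mnt by 0.17 (SE 0.04, adjusted p = 7e-04). Mxd4 averaged 9.46 ± 0.19 with Grass and 7.05 ± 0.68 in Untreated and rose by 0.42 (SE 0.12, adjusted p = 0.011 by limma). That call did not hold without either Grass replicate or without Untreated replicate 1. With HDM, Mxi1, Mnt and Mxd4 were not called as deposited. Mnt and the related Mxd1 were called higher under all 3 other scalings and in edgeR, Mxi1 under upper-quartile factors and Mxd4 in edgeR.

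**Figure D4:**
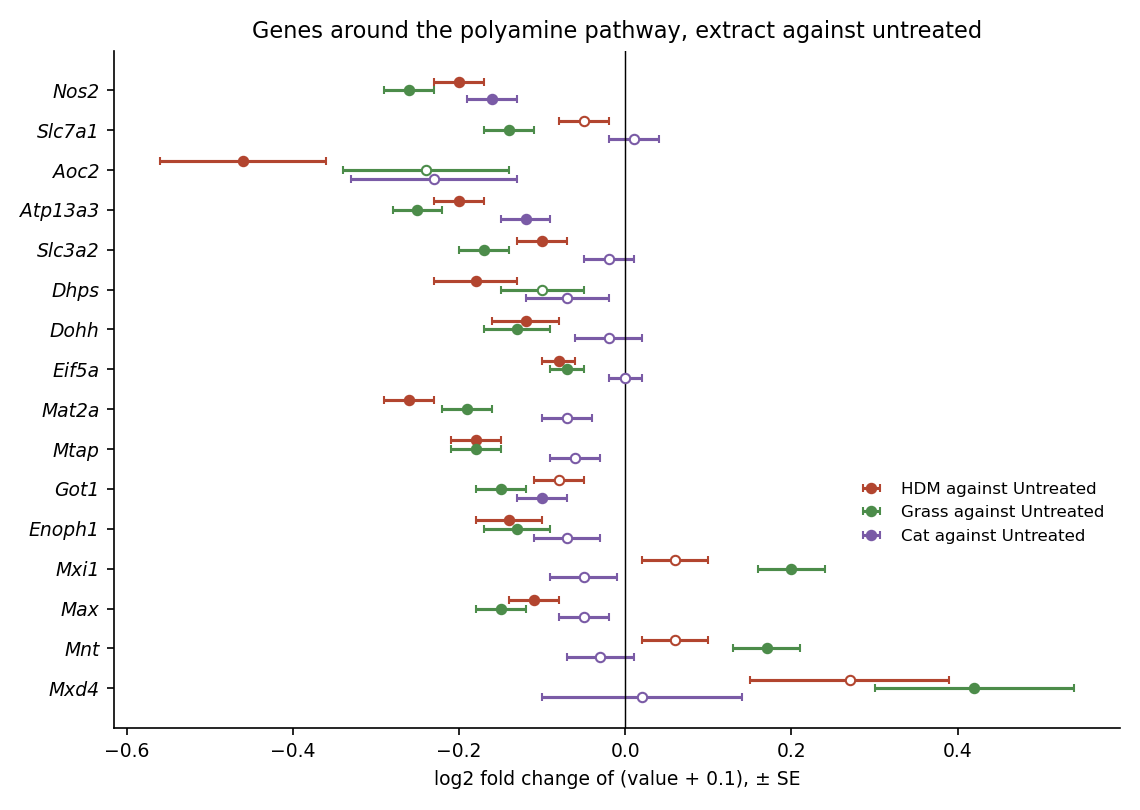
Points give the log2 fold change of the value plus 0.1 with its standard error for 16 genes around the polyamine pathway, each extract against Untreated, and filled points were called at an adjusted p under 0.05. Called points lie below 0 except those of Mxi1, Mnt and Mxd4 with Grass at 0.20, 0.17 and 0.42.

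Between extracts the same lists had 10 calls for Grass against Cat, 3 higher and 7 lower, where 11.8% of all rows were called. For HDM against Cat they had 3, 1 higher and 2 lower, where 7.77% of all rows were called. Mat2a was lower with HDM than with Cat, at -0.19 (SE 0.03, limma adjusted p = 7.1e-05), and lower with Grass than with Cat, at -0.11 (SE 0.03, adjusted p = 0.011). The Grass and Cat difference of Mat2a ended in DESeq2 and without any 1 Grass or Cat library. Between HDM and Grass limma called 0 of the 33 genes, with 11 at an unadjusted p under 0.05, while edgeR on recovered reads called 1 and DESeq2 called 0.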

How the data were processed

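RNA from 8 DC2.4 libraries (4 groups of 2) was sequenced from mRNA-enriched stranded libraries, per the labels' protocols. Bowtie2 2.1.0, RSEM 1.2.15, edgeR and build mm9 are named in the submitters' processing notes, without roles, and the annotation is not given in the sources used here. The deposited table is called raw counts but holds a depth-scaled signal: each column sums to between 975215 and 1047501, and its values are whole reads times 1 step per library (100% whole within 1e-06). The authors' tables of changed genes for each extract add a deposited fold, p-value and FDR. Since the signal is no count, limma 3.58.1 (R 4.3.3, trend and robust) was fitted to log2(value + 0.1) of all 8 libraries, with 4 residual degrees of freedom, rows of at least 0.5 in at least 2 libraries, and Benjamini-Hochberg adjustment over 11454 rows. Fold changes of low genes are understated on this scale.

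Alternatives were TMM, DESeq2 size factors and upper-quartile factors, edgeR 4.0.16 and DESeq2 1.42.0 on the recovered reads, a pseudocount of 1, no filter, only the 2 groups compared, a replicate block, separate Amd rows, and 8 fits without 1 library each. The sum of Oaz1 and Oaz1-ps was chosen after seeing the data. The genes, lists and tests were chosen with earlier results of these data known. Of each list, up to 4 genes called against Untreated were named, by smallest p. Genes named outside this rule (Arg1, Arg2, Oat, Aldh18a1, Paox, Myc, Mxd1, Mxd3, Mga, Adi1) were chosen after their values were seen. Amd1, Amd2 and Oaz1-ps share reads with near-identical copies, and how the authors' counting divided them is not stated. Promoters came from RefSeq (GRCm38.p6) and transcripts from GENCODE M21, whose build differs from the authors'. Read counts cover counting error only.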

Additional observations from a re-analysis of the deposited data

How the results depend on the processing

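Of 972 refits of single polyamine changes, 878 stayed on the same side of the call threshold, 60 lost the call and 34 gained a call. They include refits that could alter little, such as those without a library of a group not compared. Only the 21 changes called at first could lose a call, and 13 of those held in every alternative run. The share that stayed is therefore no measure of how stable the calls are. No change that was called in either fit had opposite signs in the 2 fits, but changes near 0 that were not called could change sign, such as Srm with HDM. With Grass against Untreated, 3 polyamine rows were called in place of 5 under TMM factors, DESeq2 size factors, edgeR and DESeq2. With Cat against Untreated, 1 was called in place of 2 with no filter and with only the 2 groups compared. Between HDM and Grass, 1 was called in place of 2 in DESeq2 and with no filter. Of the pathway's neighbours, 5 were called with HDM in DESeq2 in place of 12. Between HDM and Grass, 1 was called under the 3 other scalings and in edgeR and 4 with only the 2 groups compared, in place of 0. Between HDM and Cat, 10 were called with only the 2 groups compared in place of 3, and between Grass and Cat 6 in DESeq2 in place of 10. The cause was not tested. Of their 42 calls, 21 held in every alternative and 0 changed sign.

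Leaving out 1 library at a time, the polyamine rows called ranged from 5 to 7 (HDM), 3 to 7 (Grass) and 1 to 3 (Cat) against Untreated, 1 to 3 (HDM against Grass), 2 to 6 (HDM against Cat) and 2 to 3 (Grass against Cat). The neighbours called ranged from 8 to 15, 11 to 14, 1 to 4, 0 to 4, 1 to 9 and 4 to 13 in the same order. Over all rows the calls ranged from 2374 to 3638, 2898 to 4180, 957 to 2524, 104 to 567, 434 to 1282 and 536 to 1960, where the fit of all libraries had 3570, 4105, 2060, 265, 890 and 1354. DESeq2 called 2042, 2492, 1034, 170, 507 and 707 rows, and between HDM and Grass 163 were called with no filter and 595 with only the 2 groups compared.

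Replicate numbers share only a number: deviations of same-numbered libraries correlated at -0.08 to 0.14 over 6 pairs of groups. With a replicate block, the polyamine rows called were 6, 5, 2, 2, 3 and 2 in the same order, and the 1 call that ended was that of Srm between HDM and Cat. The neighbours called with the block were 11, 14, 3, 0, 3 and 8. With 2 libraries a group, a row that was not called is not shown to be equal. Depth limits the separate Amd1 row most, with 34 reads in Grass replicate 2.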
